A study of Homo sapiens with 9 samples.

Results

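The prolactin receptor, its kinase, the STAT5 transcription factors and their feedback inhibitors were followed as 8 genes: PRLR, GHR, JAK2, STAT5A, STAT5B, CISH, SOCS2 and SOCS3. They were picked by symbol from the platform annotation of the array, and each of the 8 had 1 probe set with a single symbol, among 21214 probe sets that carried a gene symbol. Their RNA was measured in T47D, an established luminal breast cancer cell line, with 9 Affymetrix arrays. All 9 arrays came from cells that carried a retroviral pHUSH vector with a hairpin against ELF5, switched on by doxycycline, and each array held cells pooled from 3 wells. The 3 groups of 3 arrays were ethanol vehicle, 10 nM of the synthetic progestin ORG2058 for 4 days, and 10 nM ORG2058 with 0.1 μg/ml doxycycline for 4 days. The labels give no treatment time for vehicle and no culture batch, so these cannot be told apart from the groups. None of the 9 arrays had doxycycline without ORG2058 or another hairpin, so the drug and the hairpin cannot be told apart either, and the labels do not say whether the cells were a clone.

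Prolactin binds PRLR, a receptor with no enzyme activity of its own, and the bound kinase JAK2 then phosphorylates STAT5A and STAT5B, which move to the nucleus and switch on genes. CISH, SOCS2 and SOCS3 are among the genes switched on in this way in many cells, and their proteins in turn damp the receptor or the kinase. GHR, the growth hormone receptor, is a close relative of PRLR that uses the same kinase and STATs. In the mammary gland this route, STAT5A above all, drives the formation of milk-secreting alveoli, together with progesterone and the ETS factor ELF5. The arrays measured RNA only and say nothing about phosphorylation, and in such bulk samples fewer cells of a kind and less RNA per cell cannot be told apart. The culture medium named in the labels held serum and insulin, with no prolactin named.

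ELF5, the target of the hairpin, was at 10.17 ± 0.109 with vehicle, 11.28 ± 0.0455 with ORG2058 and 10.42 ± 0.0608 with doxycycline added (log2 level, SD, n = 3 arrays each). All changes below are log2 differences of group means. Their standard error (SE) and adjusted p come from limma, which draws the spread of each probe set toward a value shared by all of them. The adjustment was that of Benjamini-Hochberg over all 21214 probe sets, with 0.05 as the threshold. The files give no detection call, and levels of different probe sets are not on a common scale. PGR, the progesterone receptor, went from 11.91 with vehicle to 9.63 with ORG2058 and 9.96 with doxycycline added (group means, log2). Group means of the 8 luminal markers ran from 8.38 for ESR1 to 13.17 for KRT18 (log2 level). Those of markers of other cell types ran from 5.48 for VIM to 7.95 for KRT14 (4 basal and mesenchymal genes), from 4.95 for PDGFRB to 8.60 for COL1A1 (4 fibroblast genes), from 5.37 for VWF to 9.38 for CDH5 (3 endothelial genes) and from 3.06 for PTPRC to 7.66 for CD14 (3 immune genes). Beside the fall of PGR, ORG2058 changed KRT19 (0.46, adjusted p = 0.000838), GATA3 (-0.51, 0.00161) and ESR1 (-0.50, 0.00196) among the luminal markers. Of the others it changed KRT5 (0.61, adjusted p = 0.0363), PECAM1 (0.34, 0.0194), CDH5 (0.30, 0.0299) and COL1A1 (-0.42, 0.0136), and the part of such shifts in the results below was not tested. Rank correlations of arrays within a group were 0.989 to 0.995, and median levels of the 9 arrays lay between 7.19 and 7.28.

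With ORG2058 against vehicle, 4 of the 8 genes rose and 0 fell: STAT5A, JAK2, STAT5B and PRLR. By limma, the same number, 4, had an unadjusted p under 0.05, against 39.0% of all probe sets. Over all probe sets 29.0% passed the test in this comparison, and 13.4% passed it as higher. All 8 changes were positive, and their median was 0.28, against a median of 0.02 over all probe sets tested. The change of SOCS3 turned negative with array weights (-0.0126), without vehicle replicate 2 (-0.0865) and without progestin replicate 2 (-0.0828). The arrays of ORG2058 lay above all vehicle arrays for 6 of the 8 genes, against 20.8% of all probe sets. The 8 genes, and the lists used below, were chosen with earlier results of these data known. Counts set beside shares of all probe sets, here and below, therefore describe these genes and do not test them.

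**Figure D1:**
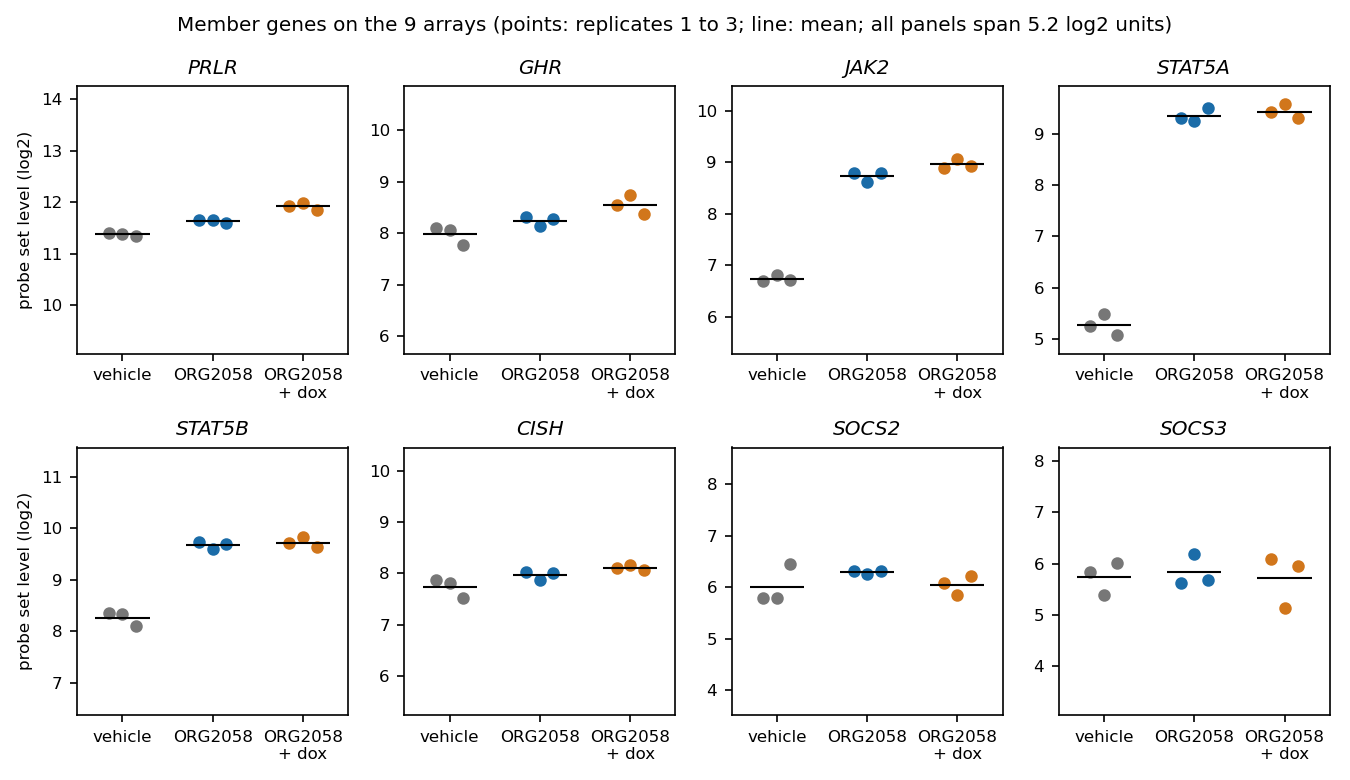
Probe set levels (log2) of the 8 genes on the 9 arrays, with 1 point per array, a line at the mean of each group of 3, and panels that all span the same number of log2 units. STAT5A, JAK2 and STAT5B stand well above vehicle in both groups given ORG2058, while SOCS2 and SOCS3 overlap between vehicle and either of them.

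Among the receptors, PRLR was at 11.40, 11.38 and 11.34 on the vehicle arrays, 11.65, 11.65 and 11.59 with ORG2058, and 11.92, 11.98 and 11.85 with doxycycline added (log2 level). The 3 groups did not overlap, and stood in the order vehicle, ORG2058, ORG2058 with doxycycline. The rise with ORG2058 was small, 1.20-fold (log2 change 0.26, SE 0.06, adjusted p = 0.0174), though larger than the spread between replicates. That call was lost without vehicle replicate 2 (adjusted p = 0.0515), progestin replicate 1 (0.0625) or progestin replicate 2 (0.0547), with changes of 0.25 to 0.26. With doxycycline added, PRLR stood 1.46-fold above vehicle (log2 change 0.54, SE 0.06, adjusted p = 0.000379).

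GHR lay at 8.10, 8.06 and 7.78 with vehicle, 8.31, 8.14 and 8.28 with ORG2058, and 8.54, 8.75 and 8.37 with doxycycline added (log2 level). Again the groups stood in the same order without overlap, but with gaps that were narrow beside the spread. The ORG2058 change of 0.26 (SE 0.12) did not pass the test (adjusted p = 0.16), and was 0.16 without vehicle replicate 3, the lowest of the vehicle arrays. Only the outer groups of that order differed by the test, with ORG2058 plus doxycycline 1.49-fold above vehicle (log2 change 0.57, SE 0.12, adjusted p = 0.0091).

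JAK2, the kinase that sits on both receptors, was at 6.70, 6.81 and 6.71 with vehicle, 8.80, 8.61 and 8.80 with ORG2058, and 8.89, 9.07 and 8.92 with doxycycline added (log2 level). All arrays with ORG2058 stood far above all vehicle arrays. The rise was 3.99-fold (log2 change 2.00, SE 0.08, adjusted p = 1.56e-06), and it was 4.66-fold over vehicle with doxycycline added (log2 change 2.22, SE 0.08, adjusted p = 7.73e-07). JAK1, a relative of JAK2 that serves interferon and interleukin receptors, fell by 0.82 on the log2 scale with ORG2058 (SE 0.08, adjusted p = 0.000166). The kinases thus changed in opposite directions, while TYK2 and JAK3 were at 0.12 and -0.17 and did not pass the test (adjusted p = 0.586 and 0.44).

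STAT5A had the largest change of the 8 genes. It was at 5.27, 5.49 and 5.08 with vehicle, 9.31, 9.25 and 9.49 with ORG2058, and 9.42, 9.57 and 9.29 with doxycycline added (log2 level). The arrays with and without ORG2058 were far apart, and those with and without doxycycline were interleaved. The rise was 16.8-fold (log2 change 4.07, SE 0.12, adjusted p = 2.96e-07), and 17.7-fold over vehicle with doxycycline added (4.14, SE 0.12, adjusted p = 2.6e-07). With 16 added to the linear values, which shrinks changes of dim probe sets, the rise with ORG2058 was 3.60.

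STAT5B, a near-identical paralogue of STAT5A, was at 8.35, 8.33 and 8.11 with vehicle, 9.74, 9.60 and 9.69 with ORG2058, and 9.71, 9.84 and 9.63 with doxycycline added (log2 level). It too rose on every array with ORG2058, by 2.66-fold (log2 change 1.41, SE 0.09, adjusted p = 1.51e-05), and stood 2.75-fold above vehicle with doxycycline added (1.46, SE 0.09, adjusted p = 1.07e-05). The within-array difference of the STAT5A probe set from that of STAT5B, whose own offset has no meaning, went from -2.98 ± 0.128 with vehicle to -0.33 ± 0.121 with ORG2058 (log2, SD, n = 3), a shift of 2.65. The exact permutation test, two-sided, gave p = 0.1, the smallest that 3 arrays against 3 can give, so it could not pass the threshold. How much signal the paralogues' probe sets share was not tested.

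The genes of STAT5B and STAT5A lie next to each other on chromosome 17 and are read in opposite directions away from each other, with STAT3 as the next gene beyond STAT5A. In the RefSeq tables of GRCh38.p14 the start used for STAT5B and the first start of STAT5A are 11047 bases apart. The 250 bases before the first listed start are printed for the 3 genes that rose most and for CISH, a textbook STAT5 target, so that the letters in front of genes that rose can be set beside those in front of a gene whose change did not pass the test. Capitals mark matches to the STAT5 site TTCNNNGAA or to the short hormone receptor site TGTTCT, searched on both strands.
STAT5A (chr17:42287189-42287438, plus strand): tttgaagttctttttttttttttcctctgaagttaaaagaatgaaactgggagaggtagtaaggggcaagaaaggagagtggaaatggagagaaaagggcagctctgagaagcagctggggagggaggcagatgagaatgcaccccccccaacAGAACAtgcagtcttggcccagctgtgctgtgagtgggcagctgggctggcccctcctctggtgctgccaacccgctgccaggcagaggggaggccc
STAT5B (chr17:42276392-42276641, minus strand): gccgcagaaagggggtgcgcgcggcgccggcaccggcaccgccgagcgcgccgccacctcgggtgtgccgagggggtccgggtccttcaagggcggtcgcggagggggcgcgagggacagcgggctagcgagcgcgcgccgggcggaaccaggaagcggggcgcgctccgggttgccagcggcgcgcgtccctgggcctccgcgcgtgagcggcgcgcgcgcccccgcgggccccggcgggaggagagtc
JAK2 (chr9:4984140-4984389, plus strand): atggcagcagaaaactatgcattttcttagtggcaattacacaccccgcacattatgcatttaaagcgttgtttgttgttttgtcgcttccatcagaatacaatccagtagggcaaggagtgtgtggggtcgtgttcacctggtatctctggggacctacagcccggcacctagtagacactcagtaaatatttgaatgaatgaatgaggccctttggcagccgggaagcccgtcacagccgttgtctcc
CISH (chr3:50611775-50612024, minus strand): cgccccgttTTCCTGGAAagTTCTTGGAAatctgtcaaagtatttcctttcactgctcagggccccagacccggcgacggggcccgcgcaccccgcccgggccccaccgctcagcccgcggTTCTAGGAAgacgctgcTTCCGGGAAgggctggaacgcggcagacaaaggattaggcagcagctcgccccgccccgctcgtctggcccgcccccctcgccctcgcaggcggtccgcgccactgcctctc

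The CISH window held 4 matches to the STAT5 site, which began 241, 230, 129 and 112 bases before the start. The STAT5A window held 1 match to the short hormone receptor site, read here on the other strand as AGAACA, beginning 97 bases before the start, and the STAT5B and JAK2 windows held none of either. GC content was 54.8% for this first STAT5A window, 65.6% and 74.4% for those of its later starts, and 82.0% for STAT5B. The median of all windows was 58.0%. RefSeq listed 20 starts for 7 of the 8 genes, 2 of whose windows (CISH and the sixth start of GHR) held the STAT5 site and 3 (STAT5A at 2 of its starts and PRLR at 1) the short hormone receptor site. The windows of these 2 STAT5A starts overlap, and the match in both is the same stretch of letters. Among all 35116 windows of this length 6.57% held the STAT5 site and 12.4% the short hormone receptor site. The full palindromic element GNACANNNTGTNC was in 0 of the 20 windows and in 0.327% of all. A match is a string of letters and not a measured binding site.

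Of the feedback inhibitors, CISH was at 7.88, 7.82 and 7.53 with vehicle, 8.04, 7.88 and 8.01 with ORG2058, and 8.11, 8.17 and 8.06 with doxycycline added (log2 level). The lowest ORG2058 array and the highest vehicle array were level to 2 decimals. The ORG2058 change of 0.23 (SE 0.10) did not pass the test (adjusted p = 0.134), and its 95% interval, from just under 0 to 0.47, lies below the changes of STAT5A, STAT5B and JAK2. It was 0.13 without vehicle replicate 3. With doxycycline added CISH stood 1.30-fold above vehicle (0.37, SE 0.10, adjusted p = 0.0271), a call that was lost when any array of that group was left out (adjusted p = 0.0543 to 0.0845) or when only those groups were fitted (0.0534).

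SOCS2 was at 5.79, 5.79 and 6.44 with vehicle, 6.31, 6.26 and 6.31 with ORG2058, and 6.08, 5.85 and 6.21 with doxycycline added (log2 level). Vehicle replicate 3 was above all arrays of the other groups. The ORG2058 change was 0.29 (SE 0.18, adjusted p = 0.28), and without that array 0.51 (adjusted p = 0.0127), so that 1 array decides the call. SOCS3 was at 5.83, 5.38 and 6.01 with vehicle, 5.63, 6.18 and 5.68 with ORG2058, and 6.09, 5.13 and 5.95 with doxycycline added. All 3 groups of SOCS3 overlapped, with an ORG2058 change of 0.09 (95% interval -0.55 to 0.74, adjusted p = 0.844). In vehicle replicate 3 the level was the lowest of its group for 5 of the 8 genes.

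Doxycycline was added to ORG2058 to keep ELF5 from rising, per the design text, and the comparison with ORG2058 alone gives the levels that went with it. None of the 8 genes passed the test in limma, where 0.0189% of all probe sets did, and 3 of the 8 (PRLR, GHR and JAK2) had an unadjusted p under 0.05, against 14.0% of all probe sets. Arrays with doxycycline lay above all arrays with ORG2058 alone for 4 of the 8 genes (PRLR, GHR, JAK2 and CISH), against 14.8% of all probe sets. They lay below all of those arrays for 1 gene, SOCS2, against 1363 of all 21214 probe sets. The median change of the 8 was 0.11, beside 0.03 over all probe sets.

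The PRLR difference with doxycycline was 0.28, or 1.22-fold (SE 0.06, unadjusted p = 0.00226, adjusted p = 0.145). With a variance trend and robust estimation it passed the test (adjusted p = 0.00212), a setting in which 2.25% of all probe sets were called higher, and over all alternatives its adjusted p ranged from 0.00212 to 0.412. The GHR difference was 0.31 (SE 0.12, adjusted p = 0.328), that of JAK2 0.22 (SE 0.08, adjusted p = 0.307), that of CISH 0.14 (SE 0.10, adjusted p = 0.594) and that of SOCS2 -0.25 (SE 0.18, adjusted p = 0.587). For STAT5A the difference was 0.08, with a 95% interval of -0.21 to 0.36 (adjusted p = 0.839), and for STAT5B 0.05, with an interval of -0.17 to 0.26 (adjusted p = 0.873). The lower end of the STAT5A interval, -0.21, stands beside a rise of 4.07 with ORG2058. ELF5 had risen by 1.11 with ORG2058 and stood 0.87 lower with doxycycline added (SE 0.08, adjusted p = 0.029). With both agents ELF5 was 0.24 above vehicle (adjusted p = 0.0502). Whether ELF5 bears on STAT5A was not tested. The ELF5 call was lost when vehicle replicate 1 or 2, any array of ORG2058 alone or any array with doxycycline was left out (change -0.89 to -0.83, adjusted p = 0.0715 to 0.149), when only the groups compared were fitted (adjusted p = 0.175) and with the replicate number as a block (0.203).

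**Figure D2:**
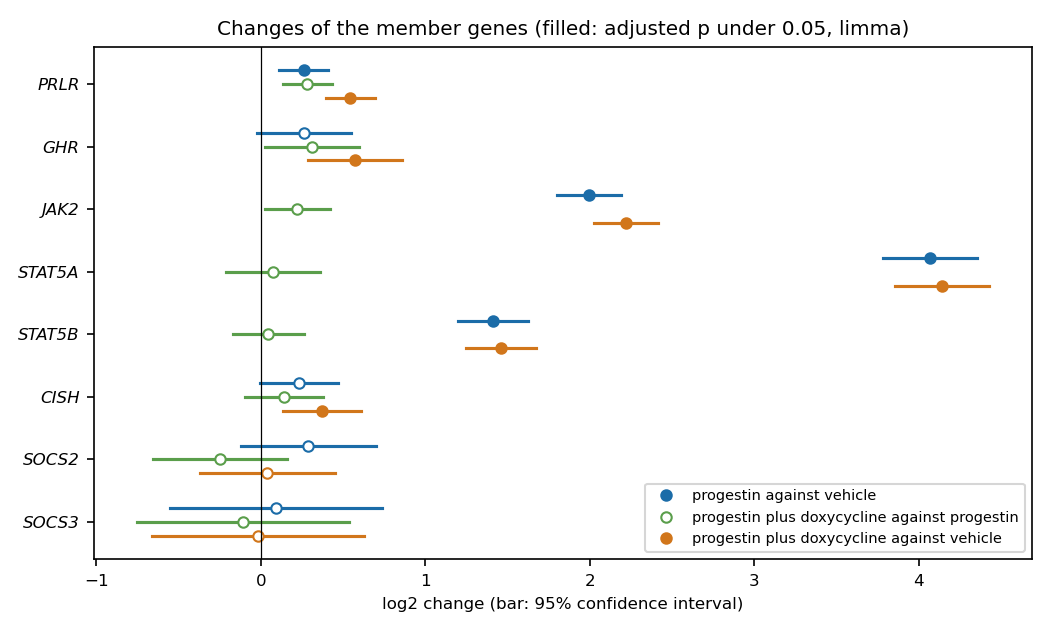
Log2 changes of the 8 genes (points) with 95% confidence intervals (bars) in the 3 comparisons, filled where the adjusted p from limma was under 0.05. The intervals of STAT5A, STAT5B and JAK2 lie far from 0 in both comparisons with vehicle, and no gene is filled for doxycycline added to ORG2058.

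Against vehicle, the cells with ORG2058 and doxycycline had 6 of the 8 genes higher and 0 lower, where 28.1% of all probe sets passed and 15.6% passed as higher. The arrays did not overlap for the same number, 6 of 8, against 23.5% of all probe sets for higher arrays. This comparison shares its vehicle arrays with the first and its doxycycline arrays with the second. STAT5A, STAT5B, JAK2 and PRLR passed in both comparisons with vehicle, GHR and CISH only where doxycycline was present, and for these 2 the difference between the groups given ORG2058 did not pass the test. SOCS2 was at 0.04 and SOCS3 at -0.02 (adjusted p = 0.907 and 0.976).

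Genes with the most similar course over the 9 arrays were taken as those with the smallest root mean square difference from a member, after the vehicle mean of each probe set was subtracted, among 18416 other genes. For STAT5A these included CORO2B (0.12 log2 units) and CYP27A1, a sterol hydroxylase (0.12), which changed by 3.91 and 4.06 with ORG2058. For JAK2 they were CLMN (0.08), CYFIP2 (0.08) and the hypoxia factor EPAS1 (0.08), with changes of 2.08, 2.04 and 2.10. STAT5B was most like P4HA2, a collagen prolyl hydroxylase (0.04), GTPBP2 (0.05) and TMEM139 (0.06), with changes of 1.41, 1.39 and 1.42. PRLR was most like the ubiquitin ligase MARCHF6 (0.04), the methyltransferase SETD7 (0.04) and NEO1, the receptor neogenin (0.05), which stood 0.24, 0.27 and 0.29 above vehicle with ORG2058 and 0.58, 0.53 and 0.57 with doxycycline added. These are likenesses of course over the same 9 arrays and carry no test.

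Around the 8 genes, a list of 60 ligands, receptors, kinases, regulators and genes known to respond to STAT5 had 54 with a single-symbol probe set. With ORG2058 11 of the 54 rose and 12 fell, with a median change of -0.00302, where 29.0% of all probe sets passed the test. Of 4 ligand genes 0 passed in limma, and 0 had an unadjusted p under 0.05, against 39.0% of all probe sets. PRL itself lay between 3.45 and 4.64 on all 9 arrays (log2 level; change 0.16, SE 0.30, adjusted p = 0.738). The growth hormone and placental lactogen genes are near-identical copies whose probe sets may share signal.

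Among 7 other cytokine receptor chains, IL6ST, the shared signalling chain of the interleukin-6 family, rose by 0.64 (SE 0.06, adjusted p = 0.000149) and OSMR, which pairs with it for oncostatin M, fell by 0.36 (SE 0.10, adjusted p = 0.0224). The OSMR call was lost without vehicle replicate 1 or 2 or progestin replicate 1 or 2 (adjusted p = 0.0545 to 0.0844). Of 3 other STATs measured, STAT6, the factor of interleukin-4 (0.56, SE 0.12, adjusted p = 0.00756), and STAT3, which IL6ST activates (0.38, SE 0.07, adjusted p = 0.00274), rose. STAT4, a factor of lymphocytes, was at -0.04 (adjusted p = 0.921).

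Of 5 other SOCS genes 0 rose and SOCS4 fell (-0.38, SE 0.11, adjusted p = 0.0327), where 29.0% of all probe sets passed and 13.4% passed as higher. The SOCS4 call was lost without vehicle replicate 1 or 2, any array of ORG2058 alone or progestin plus doxycycline replicate 1 (adjusted p = 0.0516 to 0.111). It was also lost when only the groups compared were fitted (0.0641) and with all probe sets of the table (0.0565). Among 8 PIAS proteins and phosphatases 1 rose and 4 fell, where 29.0% of all probe sets passed and 13.4% passed as higher. PTPN2, a phosphatase that acts on JAK and STAT proteins, fell by 0.62 (SE 0.08, adjusted p = 0.000563), and PIAS2 and PIAS4, which bind STATs and attach SUMO, fell by 0.56 and 0.32 (SE 0.08 and 0.07, adjusted p = 0.00117 and 0.0092). PTPN1, a phosphatase known to act on JAK2, fell by 0.34 (SE 0.08, adjusted p = 0.0107) and is named after its value was seen. PIAS1, a relative of PIAS2 and PIAS4, rose by 0.60 (SE 0.09, adjusted p = 0.00135). With doxycycline added PTPN2 lay 0.40 above ORG2058 alone (SE 0.08, adjusted p = 0.12) without overlap of the arrays.

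Of 10 adaptors and proteins of receptor turnover 2 rose and 2 fell, where 29.0% of all probe sets passed and 13.4% passed as higher. GAB2, a docking protein, rose by 0.74 (SE 0.10, adjusted p = 0.000859) and SHC1, an adaptor to RAS, by 0.30 (SE 0.08, adjusted p = 0.0199). IRS1, the insulin receptor substrate, fell by 0.32 (SE 0.08, adjusted p = 0.023), and PPIA, the abundant prolyl isomerase cyclophilin A, by 0.34 (SE 0.07, adjusted p = 0.0074). The SHC1 and IRS1 calls were each lost with single arrays left out, SHC1 without vehicle replicate 2 or progestin replicate 1 or 3 (adjusted p = 0.051 to 0.0652), IRS1 without vehicle replicate 1 or 2 or progestin replicate 1 or 2 (0.0639 to 0.0816). SHC1 was also lost when only the groups compared were fitted (0.0543).

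Genes known to respond to STAT5 went both ways: 5 of 14 rose and 3 fell, where 29.0% of all probe sets passed and 13.4% passed as higher. Their median change was 0.16, beside 0.02 over all probe sets. BCL6, a repressor that STAT5 is known to hold down in several cell types, was at 8.10, 8.22 and 8.15 with vehicle, 10.06, 10.10 and 10.09 with ORG2058, and 10.29, 10.68 and 10.74 with doxycycline added (log2 level). It rose 3.79-fold (log2 change 1.92, SE 0.12, adjusted p = 9.84e-06), and its groups did not overlap. BCL2L1, which encodes the survival protein BCL-xL, rose by 1.12 (SE 0.08, adjusted p = 1.92e-05), and ELF5 by 1.11. PIM2, a survival kinase, fell by 1.10 (SE 0.07, adjusted p = 1.6e-05).

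The other 4 genes of that list past the threshold are named after their values were seen. MCL1, another survival protein, rose by 0.68 (SE 0.07, adjusted p = 0.000141), while cyclin D1, CCND1, fell by 0.75 (SE 0.07, adjusted p = 9.64e-05) and the kinase PIM1 by 0.48 (SE 0.14, adjusted p = 0.0381). Of 4 milk protein genes CSN3, kappa-casein, rose by 0.86 (SE 0.23, adjusted p = 0.0215), from 2.78 ± 0.283 to 3.64 ± 0.137 (log2 level, SD, n = 3), a low level at which the change was 0.31 with 16 added to the linear values. CSN3 was not called with a variance trend and robust estimation (adjusted p = 0.0739) or without vehicle replicate 1 or 2 or progestin replicate 1 or 3 (0.0554 to 0.074). PIM1 was not called without vehicle replicate 1 or 3, any array of ORG2058 alone or progestin plus doxycycline replicate 2 (adjusted p = 0.0538 to 0.11), nor with all probe sets of the table (0.0685). CSN1S1, CSN2 and LALBA, the other milk protein genes, were at 0.05, -0.24 and -0.29 and did not pass the test (adjusted p = 0.935, 0.239 and 0.579).

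**Figure D3:**
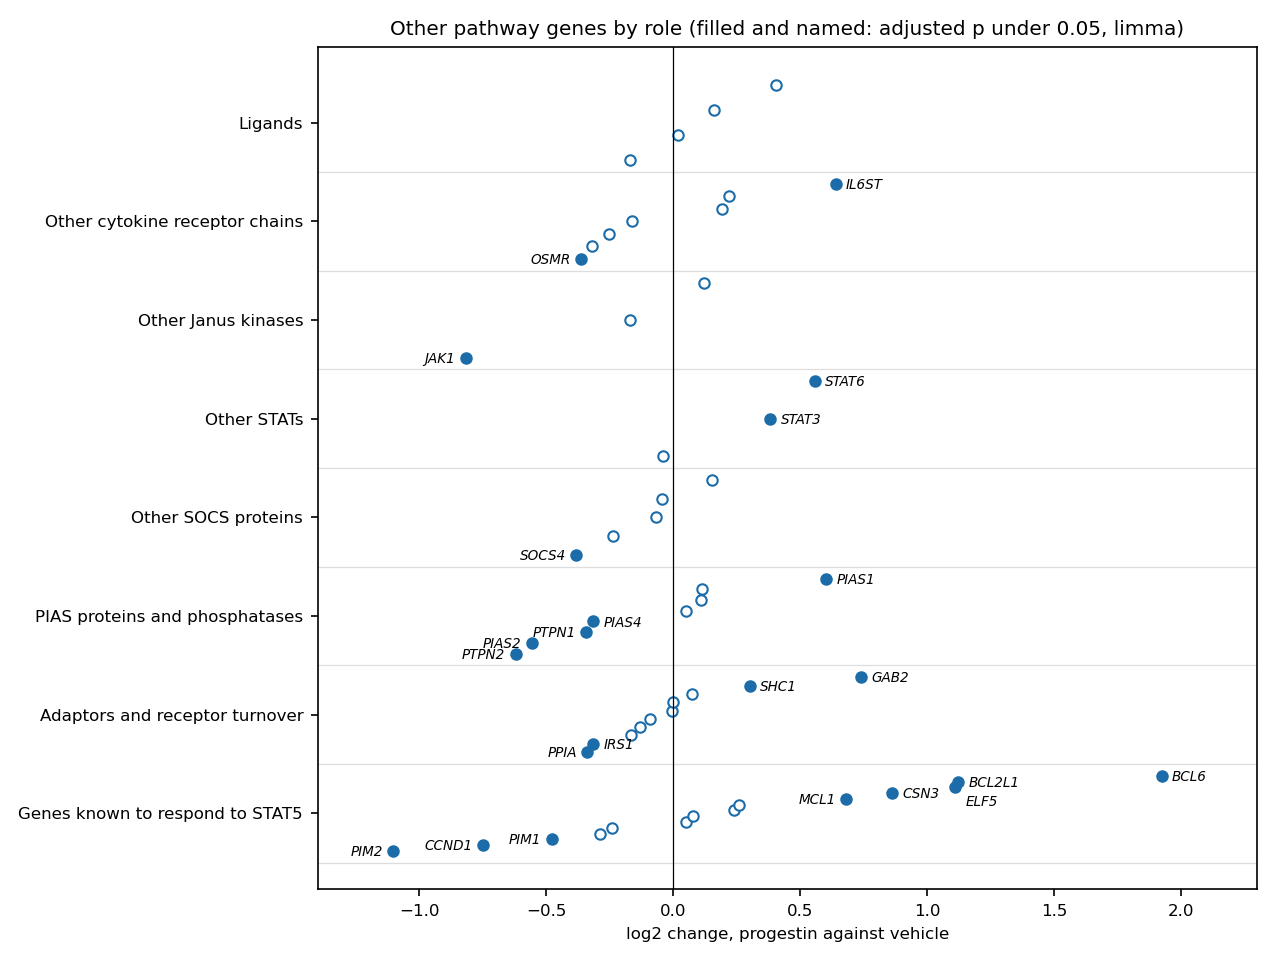
Log2 change with ORG2058 against vehicle (horizontal axis) of the 54 measured genes of the wider list, by role (rows); each point is a gene, filled and named where the adjusted p from limma was under 0.05. Filled points lie on both sides of 0, from PIM2 at -1.10 to BCL6 at 1.92, and the ligand row has none.

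With doxycycline added to ORG2058, the 1 gene of the 54 that passed the test was ELF5, the target of the hairpin. It fell, where 0.0189% of all probe sets passed. The fall of the hairpin's own target says nothing about the other genes of the list. By limma, 12 of the 54 had an unadjusted p under 0.05, against 14.0% of all probe sets. JAK1 lay 0.32 higher (SE 0.08, adjusted p = 0.172), BCL6 0.49 higher (SE 0.12, adjusted p = 0.156) and IL6ST 0.25 higher (SE 0.06, adjusted p = 0.166). These 3 passed with a variance trend and robust estimation (adjusted p = 0.00823, 0.00649 and 0.00588), a setting in which 2.25% of all probe sets were called higher. SOS1, named after its value was seen, lay 0.33 higher (SE 0.08, adjusted p = 0.164) and was not followed under the alternatives for this comparison. Against vehicle, 12 of the 54 were higher and 10 lower in the cells with ORG2058 and doxycycline, where 28.1% of all probe sets passed and 15.6% passed as higher. GH2 was among the lower genes by a call at the threshold (-0.65, SE 0.21, adjusted p = 0.0479) with overlapping arrays. GH2 lost that call without vehicle replicate 2 or 3, any array of ORG2058 alone or progestin plus doxycycline replicate 2 or 3 (adjusted p = 0.0534 to 0.145), with only the groups compared (0.0761), with the replicate number as a block (0.079) and with all probe sets (0.0896). It was at -0.22 with array weights (adjusted p = 0.404).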

How the data were processed

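RNA of the 9 samples was hybridised to 1 array each. The authors deposited a table of 33297 probe sets with log2 values, already normalized. Per the submitters' processing notes the tools included limma, PLIER, Affymetrix Power Tools and the Expression Console, but their roles and versions are not given in the sources used here. These values were used as deposited. Groups came from the sample labels, and the design text calls the replicates independent experiments. Each limma p-value rests on the spread among arrays, 3 per group, drawn toward a value shared by all probe sets. That small number of arrays limits the precision.

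The 21214 probe sets with a gene symbol in the platform annotation were fitted in limma 3.58.1 (R 4.3.3), using all 9 arrays, a mean for each group and 6 residual degrees of freedom, and p-values were adjusted by Benjamini-Hochberg over all of them. The steps were checked on simulated data. A gene was read from its single-symbol probe set with the highest mean. Named genes were the 8 members, ELF5 and PGR, up to 4 genes with the smallest p past the threshold in each role group of the wider list, and the 3 genes most like each member that passed with ORG2058; TYK2, JAK3, STAT4, PRL, CSN1S1, CSN2 and LALBA, which did not pass, and the cell type markers are named besides, chosen after their values were seen, as are other exceptions where they are printed. A gene most like STAT5A is not reported here. The members and lists were chosen with earlier results of these data known. Alternatives were the groups fitted, a replicate block, quantile normalization, a filter on dim probe sets, the variance model, array weights, 16 added to the linear values, all probe sets, and each array left out. Promoter sequences came from RefSeq (GRCh38.p14).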

Additional observations from a re-analysis of the deposited data

How the results depend on the processing

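With ORG2058 against vehicle 6161 probe sets passed, and 9502 with array weights. With doxycycline added to ORG2058, 4 passed (2969 at an unadjusted p under 0.05), against 0 with only the groups compared, 0 with the replicate block, 158 when the dimmest 25% were dropped, 530 under robust estimation and a variance trend, 8 with array weights, 15 with 16 added, 12 with all probe sets, and 0 to 2 with 1 array left out; the cause was not tested. Against vehicle with both agents, the count of 5953 stayed within 1.5 times under the alternatives run. Of 408 values of the 8 genes over 17 alternatives, 381 kept direction and side of the threshold, 7 lost a call, 4 gained one and 16 changed sign. The sign changes were in small differences. SOCS3 with ORG2058 was -0.0126 with array weights and -0.0865 to 0.23 with 1 array left out. With doxycycline added to ORG2058, SOCS3 was 0.11 with array weights and -0.29 to 0.19 with 1 array left out, and STAT5B was -0.0199 after quantile normalization and -0.00837 to 0.0947 with 1 array left out. With both agents against vehicle, SOCS2 was -0.0244 after quantile normalization and -0.0689 to 0.26 with 1 array left out, and SOCS3 was 0.10 with array weights and -0.20 to 0.28 with 1 array left out. CISH with ORG2058 passed after quantile normalization (adjusted p = 0.046), and SOCS2 with array weights (0.0074). Same-numbered arrays of different groups had correlated deviations above 0.1 in 3 of 9 pairs (-0.26 to 0.48), against 7 of 18 for other pairs (-0.51 to 0.28). The highest values were those of vehicle with progestin plus doxycycline at replicates 2 (0.48) and 3 (0.46). Whether arrays of the same number share more than that number was not tested. The replicate block gave 5378, 0 and 5240 calls, and it ended the calls of SHC1 (0.053) and PIM1 (0.0636) with ORG2058, of ELF5 with doxycycline added to ORG2058 (0.203), and of GH2 (0.079), IL4R (0.0732), PTPN1 (0.075) and SHC1 (0.0679) with both agents against vehicle. It ended no other call among the genes followed, and the cell type markers other than PGR were not followed under any alternative. No member had another probe set to try.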
